A study of Mus musculus with 8 samples.

Results

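Integrin mRNAs were followed in DC-restricted progenitors (CDPs) of mice on a high fat or a control diet, for 10 genes chosen by symbol among the 16119 genes of the count table. These were the β2 family of leukocytes (Itgam, Itgax, Itgal and Itgb2), the α4 and α6 chains with their β partners (Itga4, Itga6, Itgb1 and Itgb7) and the platelet pair (Itga2b and Itgb3). All 10 were found in the table and all 10 passed the filter on low counts, among 15837 genes tested. CDPs were flow-sorted from BM as Lin- cells that were CD115+ and Flt3+, with intermediate c-Kit and low Sca-1, about 50000 per library. HFD mice (C57BL/6 in the labels, C57BL/6J in the methods, labelled DIO) are labelled as fed for 16 weeks, with 60 kcal% fat, and CF mice (of the same strain, labelled DIO-Control, matched in age) received food with 10 kcal% fat, with 4 libraries per diet. The text of the study says that feeding lasted up to 16 weeks, and its methods describe males bought at an age of 16 weeks. It also says that the replicates of a diet were isolated in parallel. The number of mice behind a library is not given in the sources used here, so p values measure the spread between these libraries.

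An integrin is a pair of 1 α and 1 β chain that spans the membrane and holds a cell to matrix or to another cell. The β2 chain pairs with αL to form LFA-1, with αM to form Mac-1 (CD11b/CD18) and with αX to form CD11c/CD18, and these serve adhesion, phagocytosis and migration of leukocytes. In BM, α4β1 binds VCAM-1 on stromal cells, α4β7 is the gut homing receptor for MAdCAM-1, α6β1 binds laminin and αIIbβ3 is the fibrinogen receptor of megakaryocytes and platelets.

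The mRNA of Itgam (ENSMUSG00000030786, GRCm38 chromosome 7 from 128062640 to 128118491, plus strand) cannot be read from its own row of the table alone. An annotated protein-coding gene, Gm49368 (ENSMUSG00000108596, chromosome 7 from 128062683 to 128128160, plus strand), runs over it. In GENCODE vM21 their main transcripts, Itgam-203 and Gm49368-201, each have 30 exons, of which 28 are identical, and 29 end at the same base. They share 3450 exon bases. The first exons start at different bases, at 128062669 and 128062683, and the last exons differ. The last exon lies at 128117306 to 128118490 in Itgam-203 and at 128126808 to 128128160 in Gm49368-201. The end of the shared exon 29 (lower case) and the first 69 bases of each last exon (capitals) are shown because, apart from the first bases of exon 1, these last exons are where the transcripts can be told apart.
Itgam-203: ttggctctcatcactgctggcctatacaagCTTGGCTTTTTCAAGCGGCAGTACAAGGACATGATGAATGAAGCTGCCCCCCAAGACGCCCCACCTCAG
Gm49368-201: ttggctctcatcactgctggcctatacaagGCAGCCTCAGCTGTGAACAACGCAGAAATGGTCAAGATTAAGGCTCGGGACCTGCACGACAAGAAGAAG

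The deposited counts were divided between these genes in a different way from library to library. The table holds gene totals, so which exons the reads came from was not tested. Gm49368 held 3817 counts in HFD replicate 1, 1038 in HFD replicate 4, 2815 in CF replicate 3 and 239 in CF replicate 2. The other 4 libraries each had 2 counts. As a share of the counts of both genes this was 39.3%, 62.5%, 54.2% and 5.05%, against at most 0.14% in the other 4. Libraries with a large share occurred in both diets. For this reason Itgam is given as counted and also with Gm49368 added, a sum that was chosen after the counts were seen.

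**Figure D1:**
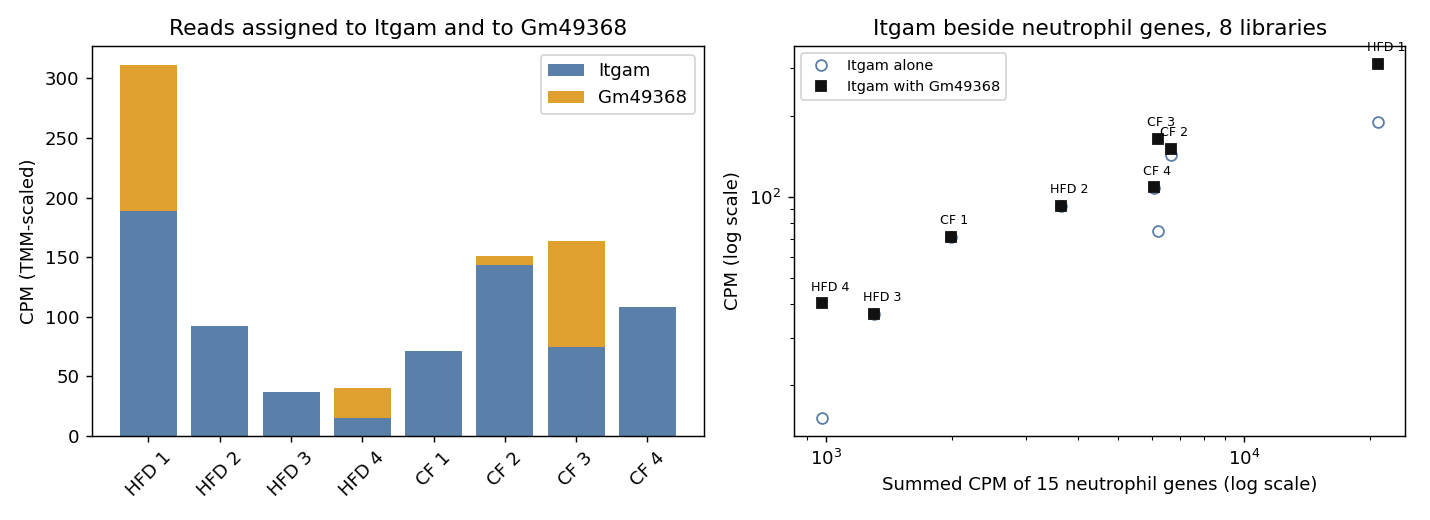
Left, TMM-scaled CPM assigned to Itgam and to Gm49368 in each library (stacked bars). Right, CPM of Itgam alone (open circles) and with Gm49368 (squares) against the summed CPM of 15 neutrophil genes, 1 point per library, on log scales. Gm49368 takes 62.5% of the pair in HFD replicate 4 and 54.2% in CF replicate 3, and HFD replicate 1 is highest on both axes.

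Total counts ranged from 28203651 to 48409689 per library. HFD replicate 1 stood apart, and its differences bear on several integrins. The share of all genes that were highest in it was not taken. The summed CPM of 15 neutrophil genes was 20830 in it, 976 to 3636 in the other HFD libraries and 1988 to 6675 in CF, and all 15 genes were highest there, although Stfa2 was at 0 in 5 libraries. For 12 megakaryocyte and platelet genes the sum was 85.9 CPM, against 4.95 to 19.9 and 4.29 to 13.9, and all 12 were highest in HFD replicate 1, with Gp6 at 0 in 5 libraries and Treml1 in 4. The sum of 11 erythroid genes was 732 CPM, against 110 to 170 and 107 to 176. Of the genes of the gate, Flt3 had 88.8 CPM in HFD replicate 1 and 227 to 378 elsewhere, whereas Csf1r (CD115) at 79.4 to 133 CPM and Kit at 34.2 to 53.6 CPM were detected in every library. Ly6a (Sca-1) was low, at 1.37 to 3.25 CPM. In bulk RNA, fewer cells of a type and less RNA per cell cannot be told apart.

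Levels were compared between integrins as CPM per kb of annotated exons, averaged over all 8 libraries. Itgb2 averaged 34.5 ± 19.7 (SD, n = 8), Itgb7 32.0 ± 7.12, Itgam with Gm49368 24.2 ± 17.8, Itga4 23.0 ± 3.84 and Itgb1 22.1 ± 2.69. The order of these 5 rests on HFD replicate 1, since Itgb2 exceeded Itgb7 in 3 of 8 libraries and the Itgam sum exceeded Itga4 in 3 of 8. Without that library the means were 33.3 for Itgb7, 28.3 for Itgb2, 23.6 for Itga4, 21.9 for Itgb1 and 18.9 for Itgam with Gm49368. Itgax at 13.4 ± 4.88 and Itgal at 12.0 ± 1.5 came next. Then came a gap, below which lay Itgb3 at 3.31 ± 2.68, Itga6 at 1.64 ± 0.52 and Itga2b at 0.82 ± 1.30. The ranges of neighbours in this order overlapped everywhere except between Itgal (lowest library 10.4) and Itgb3 (highest library 9.53). Itgb2, Itgb7, Itga4, Itgb1 and Itgal were thus above all 3 low chains throughout, but Itgax lay below Itgb3 in HFD replicate 1, at 7.90 against 9.53. Itgam as counted alone had 18.2 ± 11.2 and came below Itgb1. Per kb of the longest coding transcript instead, Itga4 was at 32.9 and Itga6 at 3.44, just above Itgb3 at 3.38.

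**Figure D2:**
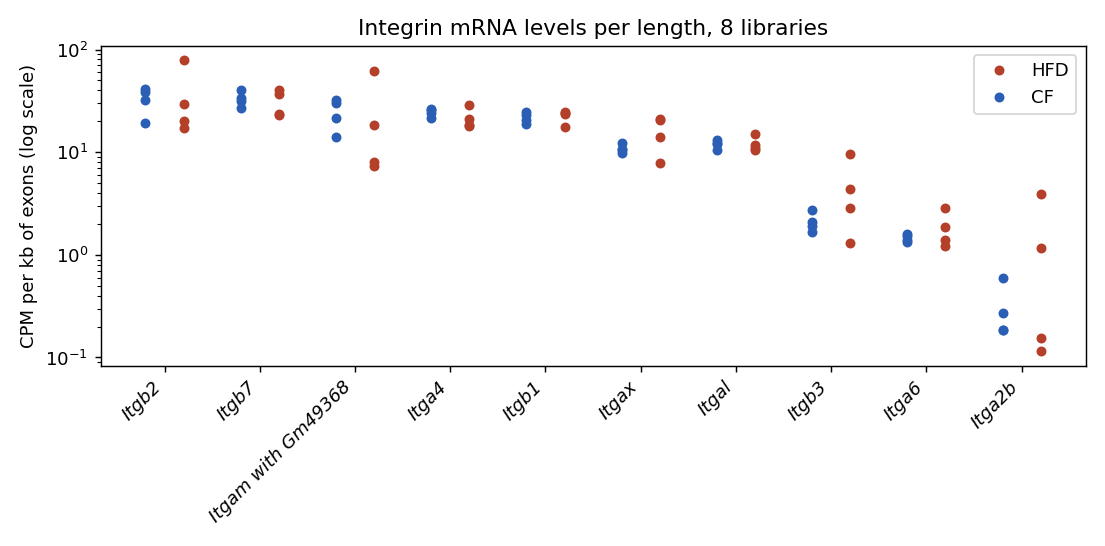
CPM per kb of exons (log scale) of each integrin, 1 point per library, CF on the left and HFD on the right of each pair, ordered by the mean over 8 libraries. The lowest library of Itgal (10.4) sits above the highest of Itgb3 (9.53), and the largest spread on this scale is that of Itga2b.

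The design asks whether transcripts of CDPs differ between HFD and CF. Of the 10 integrins, 0 passed an adjusted p of 0.05 in edgeR's quasi-likelihood test, and 0 had an unadjusted p below 0.05. Among all genes tested, 0.423% were called, all lower in HFD, and 8.56% had an unadjusted p below 0.05. The diets overlapped for each of the 10, while 6.16% of all genes had groups that did not overlap. The log2 fold change was above 0 for 7 of the 10, beside 59.7% of all genes and 64.6% of protein-coding genes. Its median was 0.10, beside 0.05 over all genes and 0.07 over protein-coding genes. With protein-coding genes fitted alone in edgeR, 0 of 11779 were called and 537 had an unadjusted p below 0.05.

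**Figure D3:**
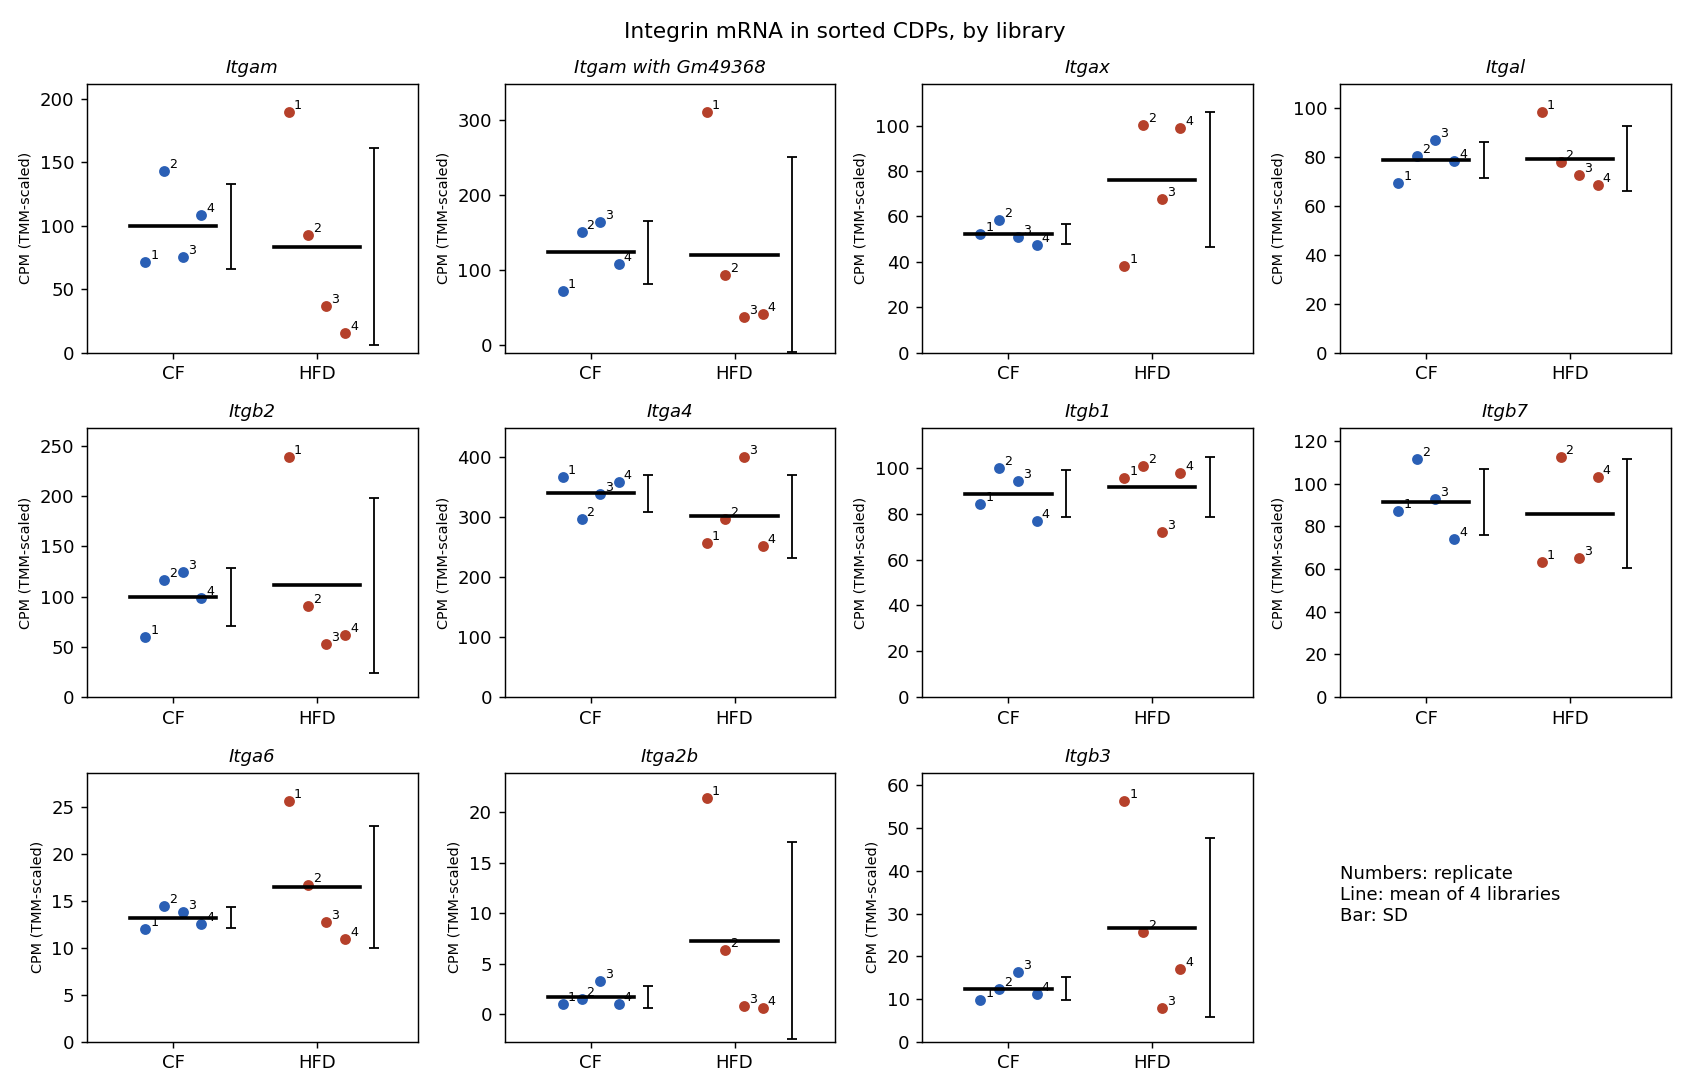
TMM-scaled CPM of each integrin in 4 CF and 4 HFD libraries, numbered by replicate, with the mean (line) and SD (bar). HFD replicate 1 is the highest of all libraries for 6 of the 10 genes and the lowest for Itgax and Itgb7. The share of all genes highest there was not taken.

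Of the β2 family, Itgb2 (ENSMUSG00000000290, chromosome 10 from 77530252 to 77565708), the common β chain, had 239, 90.9, 52.5 and 61.9 CPM in HFD replicates 1 to 4 and 59.3, 117, 125 and 98.7 CPM in CF replicates 1 to 4. HFD replicate 1 was above every CF library, the other 3 HFD libraries lay within or below the CF range, and CF replicate 1 was the lowest of its group. HFD against CF, the log2 fold change was 0.15 (SE 0.48, 95% confidence interval -0.94 to 1.25, edgeR adjusted p = 0.97). Its sign turned without HFD replicate 1, to -0.54 (SE 0.28, adjusted p = 0.41), and also with limma voom (-0.062).

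Itgam, the αM chain, had 189, 92.4, 36.7 and 15.1 CPM in HFD and 71.0, 143, 75.0 and 108 CPM in CF as counted. The highest and the 2 lowest values were all in HFD, a 12.5-fold span, against 2.01-fold in CF. With Gm49368 added the values were 312, 92.4, 36.8 and 40.3 CPM in HFD and 71.0, 151, 164 and 108 CPM in CF. The order of the libraries changed with the sum: CF replicate 3 moved from the third to the highest of CF, and HFD replicate 4 was no longer below HFD replicate 3. The log2 fold change was -0.25 (SE 0.66, adjusted p = 0.97 in edgeR) as counted and -0.04 (SE 0.67, adjusted p = 1.0) summed. Its size depended on the tool, with -0.78 in limma voom and -0.97 with sample weights, neither called. Without HFD replicate 1 it was -1.05 as counted (SE 0.57, adjusted p = 0.45) and -1.13 summed (SE 0.40, adjusted p = 0.25). Without HFD replicate 3 it was instead -0.0083 as counted, and without HFD replicate 4 its sign turned, to 0.052.

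Itgam and Itgb2 were highest in the library with the highest neutrophil sum, and among HFD libraries both were lowest in replicates 3 and 4, whose neutrophil sums of 1302 and 976 CPM were also the lowest of all 8. Within CF, replicate 1 had the lowest Itgb2, the lowest Itgam and the lowest neutrophil sum. The part of neutrophil RNA in these values was not tested. The labels say Lin-, but the antibodies of the lineage mixture are not given in the sources used here.

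Itgax (ENSMUSG00000030789, chromosome 7 from 128129547 to 128150657), the αX chain and the CD11c marker of DCs, differed from these in HFD replicate 1, where it was lowest. Its values were 38.0, 100, 67.5 and 99.0 CPM in HFD and 52.1, 58.4, 51.0 and 47.6 CPM in CF. HFD replicates 2 to 4 were above every CF library, and HFD replicate 1 was below every CF library. CF was tight, with 52.3 ± 4.48 CPM (SD, n = 4), against 76.2 ± 29.6 in HFD. With all 8 libraries the log2 fold change of 0.54 (SE 0.27, 95% interval -0.08 to 1.17) did not pass the test (edgeR unadjusted p = 0.080, adjusted p = 0.68).

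Without HFD replicate 1, Itgax was the 1 integrin called, with 88.9 ± 18.6 CPM (SD, n = 3) in HFD and a log2 fold change of 0.77 (SE 0.15, edgeR adjusted p = 0.0495). In that fit 0.214% of all genes were called higher in HFD and 1.26% in either direction. The call is just inside the threshold. With CF replicate 1 left out as well, the log2 fold change was 0.76 with an adjusted p of 0.062 in edgeR. Leaving out any other single library gave log2 fold changes down to 0.35. Leaving out each library in turn was planned with HFD replicate 1 already known to stand apart, and the fit without both libraries was added after the data were seen.

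Genes of plasmacytoid DCs are given beside Itgax. The summed CPM of 9 such genes was 355, 825, 620 and 811 in HFD replicates 1 to 4 and 451 to 518 in CF. In HFD replicates 2 to 4, 8 of the 9 genes were above every CF library, as was Itgax and as were 6.39% of all genes tested, a criterion set after HFD replicate 1 was known to stand apart. HFD replicate 1 did not follow Itgax in most of them, since 2 of the 9 (Runx2 and Cox6a2) were below every CF library there and 3 (Spib, Ccr9 and Pacsin1) were above every CF library. Without Runx2 the sum was 204 CPM in HFD replicate 1, 335 to 482 CPM in the other HFD libraries and 198 to 257 CPM in CF, a sum taken after the values were seen. All 9 had a log2 fold change above 0, with a median of 1.22, and 6 had an unadjusted p below 0.05, but 0 were called in edgeR (lowest adjusted p = 0.097). The sum of 10 genes of conventional DCs was instead lower in HFD, with 169 to 379 CPM against 416 to 794 CPM in CF, and 0 of the 10 were called, 2 having an unadjusted p below 0.05. These were Cd74 and H2-Ab1, of antigen presentation by MHC class II. Without them the sum of the other 8 overlapped between the diets, with 50.1 to 109 CPM in HFD and 96.6 to 124 CPM in CF, a sum taken after the values were seen. The part of either cell type in the Itgax values was not tested.

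Itgal (ENSMUSG00000030830, chromosome 7 from 127296260 to 127335138), the αL chain of LFA-1, was the most even of the β2 family over the 8 libraries. It had 98.1, 77.9, 72.5 and 68.5 CPM in HFD and 69.4, 80.1, 86.9 and 78.2 CPM in CF. HFD replicate 1 was again the highest, but the span was 1.43-fold in HFD and 1.25-fold in CF. Its log2 fold change of 0.01 (SE 0.13, 95% interval -0.29 to 0.31, edgeR adjusted p = 1.0) was small against its error.

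The makeup of the 3 α chains that share β2 followed from these levels. Per kb, Itgam with Gm49368 made up 73.1%, 36.0%, 22.6% and 20.5% of the 3 in HFD replicates 1 to 4 and 39.8%, 55.2%, 57.7% and 49.7% in CF. Itgax made up 9.32%, 40.8%, 43.4% and 52.8% in HFD and 30.5%, 22.4%, 18.8% and 22.9% in CF. In HFD replicates 2 to 4 Itgax was thus the largest share, whereas Itgam was the largest in all 4 CF libraries and in HFD replicate 1. Itgal varied least, from 17.6% to 34.1% over all libraries. As counted, Itgam alone made up 62.2%, 36.0%, 22.6% and 8.83% in HFD and 39.8%, 53.9%, 38.5% and 49.7% in CF. The largest share in each library was of the same chain, though in CF replicate 3 Itgal came close, at 34.1%. The ratio of Itgam with Gm49368 to Itgb2, per kb, was 0.79, 0.62, 0.43 and 0.40 in HFD and 0.73, 0.79, 0.80 and 0.67 in CF, and the groups overlapped only through HFD replicate 1. With Itgam as counted it was 0.48, 0.62, 0.43 and 0.15 in HFD and 0.73, 0.75, 0.37 and 0.67 in CF, so that 3 of the 4 HFD libraries lay within the CF range. These shares and ratios are descriptions and were not tested.

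**Figure D4:**
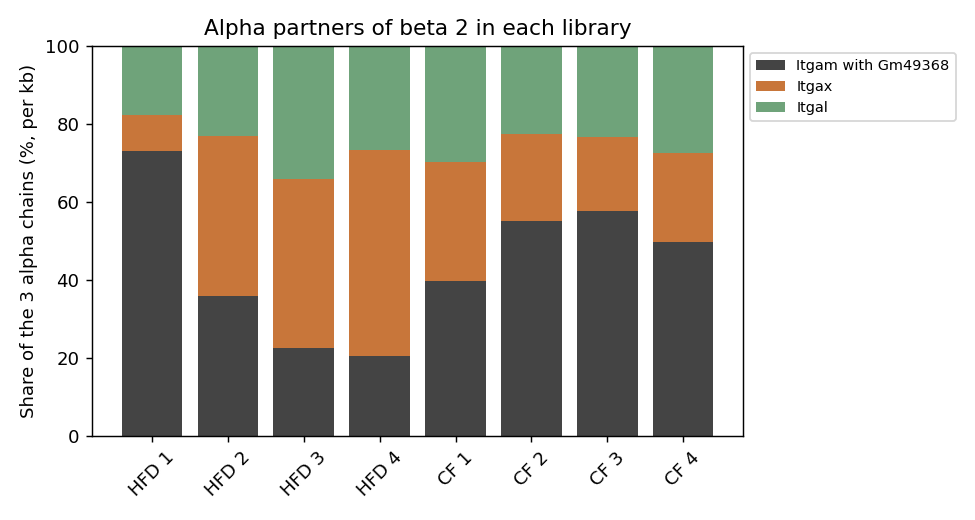
Share of Itgam with Gm49368, Itgax and Itgal in their summed CPM per kb, as stacked bars for each library. Itgam is the largest share in HFD replicate 1 and in the 4 CF libraries, and Itgax in HFD replicates 2 to 4.

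Among the chains that bind VCAM-1, MAdCAM-1 and laminin, Itga4 (ENSMUSG00000027009, chromosome 2 from 79255426 to 79333123), is the α4 chain of VLA-4. It had 257, 297, 401 and 253 CPM in HFD and 367, 298, 338 and 359 CPM in CF. Of the 4 HFD libraries, 3 were below every CF library and replicate 3 was above every CF library. The groups overlapped, with a log2 fold change of -0.17 (SE 0.17, 95% interval -0.56 to 0.21, edgeR adjusted p = 0.87). Its exons share 1124 bases with Cerkl on the opposite strand, and whether the counting used strand is not given in the sources used here. Cerkl averaged 0.92 CPM.

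Itgb1 (ENSMUSG00000025809, chromosome 8 from 128685654 to 128733200), the β1 partner of α4 and α6, had 95.7, 101, 72.1 and 97.8 CPM in HFD and 84.3, 99.7, 94.2 and 76.9 CPM in CF. HFD replicate 3 was the lowest of all libraries and the other 3 HFD libraries lay close together. Between the diets it differed by 0.04 on the log2 scale (SE 0.14, 95% interval -0.26 to 0.35, edgeR adjusted p = 0.97).

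Itgb7 (ENSMUSG00000001281, chromosome 15 from 102215995 to 102231944), the β7 partner of α4, had 63.1, 113, 65.1 and 103 CPM in HFD and 87.4, 111, 92.6 and 74.2 CPM in CF. HFD fell into a pair of low and a pair of high libraries, and all CF libraries lay between the lowest and the highest of HFD. Its log2 fold change was -0.09 (SE 0.22, 95% interval -0.59 to 0.41, edgeR adjusted p = 0.96). Per kb the mRNA of Itgb7 exceeded that of Itgb1 in all libraries except HFD replicate 1, where the ratio was 0.97. Elsewhere it was 1.33 to 1.65. The ratio of Itga4 to Itgb1 was 0.78, 0.86, 1.62 and 0.75 in HFD and 1.27, 0.87, 1.05 and 1.36 in CF, with replicate 3 of HFD the highest of all.

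Itga6 (ENSMUSG00000027111, chromosome 2 from 71745616 to 71858416), the laminin-binding α6 chain, was low in CDPs. It had 25.6, 16.7, 12.7 and 10.9 CPM in HFD and 12.0, 14.4, 13.9 and 12.5 CPM in CF. HFD replicates 1 and 2 were above CF, and replicate 4 was below it. The log2 fold change was 0.32 (SE 0.25, 95% interval -0.25 to 0.88, edgeR adjusted p = 0.83) and became 0.02 without HFD replicate 1.

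Of the platelet pair, Itga2b had the widest spread of the 10 integrins. Itga2b (ENSMUSG00000034664, chromosome 11 from 102453297 to 102470122), the αIIb chain (CD41), had 21.3, 6.29, 0.84 and 0.63 CPM in HFD and 1.01, 1.49, 3.28 and 1.01 CPM in CF. HFD replicates 1 and 2 were above every CF library and replicates 3 and 4 below every CF library, a 33.8-fold span within 1 diet. The fitted log2 fold change was 2.10 (SE 1.06, 95% interval -0.31 to 4.51, edgeR adjusted p = 0.68), and without HFD replicate 1 it was 0.60 (SE 0.82, adjusted p = 0.77). With all 8 libraries its size depended on the tool, with 0.85 in limma voom and 0.06 with sample weights, neither called. In HFD replicate 4 the value rests on 26 counts and in replicate 3 on 32, so counting error is widest at this low end.

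Itgb3 (ENSMUSG00000020689, chromosome 11 from 104608000 to 104670476), the β3 chain (CD61), which also pairs with αv, had 56.2, 25.7, 7.77 and 17.1 CPM in HFD and 9.79, 12.4, 16.2 and 11.2 CPM in CF. HFD replicates 1, 2 and 4 were above every CF library and replicate 3 was below every CF library. The log2 fold change was 1.10 (SE 0.52, 95% interval -0.08 to 2.29, edgeR unadjusted p = 0.064, adjusted p = 0.63), and it was 0.44 (adjusted p = 0.61) without HFD replicate 1.

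The ratio of Itga2b to Itgb3 per kb was 0.41, 0.26, 0.12 and 0.04 in HFD and 0.11, 0.13, 0.22 and 0.10 in CF. Itgb3 mRNA was thus the more abundant of the pair in every library. Megakaryocyte and platelet genes were highest in HFD replicates 1 and 2, at 85.9 and 19.9 CPM in sum, as was Itga2b. In HFD replicate 4 their sum was 4.95 CPM, where Itgb3 was above CF and Itga2b below it. The part of platelet or megakaryocyte RNA in either gene was not tested. Itgav, the other α partner of β3, had 32.4, 15.3, 11.2 and 11.7 CPM in HFD and 29.5, 23.1, 26.6 and 14.7 CPM in CF (log2 fold change -0.41, SE 0.37, edgeR adjusted p = 0.85).

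**Figure D5:**
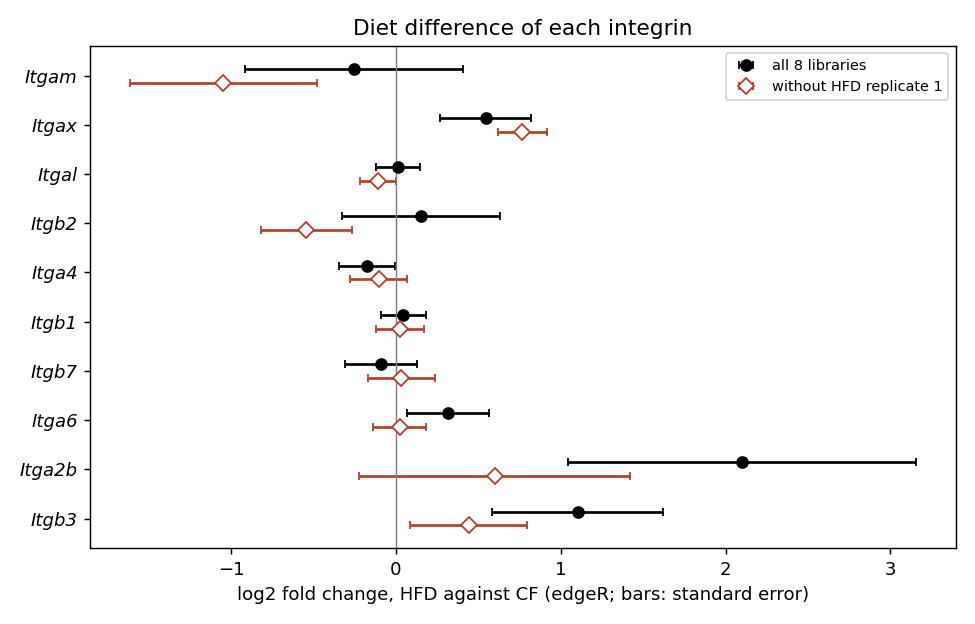
Log2 fold change of each integrin, HFD against CF, with its standard error from edgeR, for all 8 libraries (filled) and without HFD replicate 1 (open). Itgam, Itgal, Itgb2, Itgb1, Itga6, Itga2b and Itgb3 move down without that library, Itga6 from 0.32 to 0.02. Itga4 and Itgb7 move up, as does Itgax, from 0.54 to 0.77 with a smaller error.

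RefSeq promoter windows (GRCm38.p6, from 250 bases before to 50 after the start) were matched for 6 of the 10 genes, Itgam, Itgax, Itga4, Itgb1, Itgb7 and Itga2b. No window was matched for Itgal, Itgb2, Itga6 and Itgb3. The letters GAGGAA, the core read by ETS factors of the PU.1 type, were searched on both strands (TTCCTC on the other) after the values were seen. The windows of Itgam, Itga2b and Itgax are shown, with matches in capitals, since Itgam and Itga2b were highest in HFD replicate 1 and Itgax was lowest there. Itgb7 was also lowest there and held 1 match, and its window is not shown.
Itgam, chr7:128062390-128062689, plus strand: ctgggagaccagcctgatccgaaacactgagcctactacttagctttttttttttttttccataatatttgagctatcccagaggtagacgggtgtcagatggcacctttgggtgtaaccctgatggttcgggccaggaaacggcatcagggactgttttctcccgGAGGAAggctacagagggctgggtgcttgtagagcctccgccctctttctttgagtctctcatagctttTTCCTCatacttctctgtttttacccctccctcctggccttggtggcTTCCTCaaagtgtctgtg
Itga2b, chr11:102469834-102470133, minus strand: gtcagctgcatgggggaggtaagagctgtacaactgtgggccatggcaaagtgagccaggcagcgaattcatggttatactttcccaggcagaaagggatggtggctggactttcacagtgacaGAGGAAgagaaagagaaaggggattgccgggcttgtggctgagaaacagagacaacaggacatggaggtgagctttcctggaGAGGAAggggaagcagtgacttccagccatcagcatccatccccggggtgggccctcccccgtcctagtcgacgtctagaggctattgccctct
Itgax, chr7:128129300-128129599, plus strand: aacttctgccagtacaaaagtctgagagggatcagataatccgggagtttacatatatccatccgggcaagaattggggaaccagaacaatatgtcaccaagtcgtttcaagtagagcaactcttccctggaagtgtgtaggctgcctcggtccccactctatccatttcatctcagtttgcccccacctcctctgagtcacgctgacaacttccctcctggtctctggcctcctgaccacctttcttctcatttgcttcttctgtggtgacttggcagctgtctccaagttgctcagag
Itgam held 3 matches and Itga2b 2, Itgb1 and Itgb7 1 each, and Itgax and Itga4 0. Of 32851 promoter windows, 28.3% held at least 1 match, 4.82% at least 2 and 0.68% at least 3. The letters AGATAA, the core read by GATA factors, were searched in the same way on both strands. They were found in 1 of the 6 windows, once, in that of Itgax, and in 11.2% of all windows. A match is a description of the letters and no binding was measured here.

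For each integrin, the protein-coding genes whose log2 CPM ran most like it over the 8 libraries were taken from 6660 genes with a mean of at least 10 CPM. HFD replicate 1 lies far from the other points in many of them, and the correlations (Pearson, n = 8) are descriptions. They are the highest of 6660 values, each over 8 libraries. How high the largest of that many runs among unrelated genes was not tested. Itgam with Gm49368 ran with Myo1f (a myosin of leukocytes; r = 0.997), Igsf6 (0.996) and Fosl2 (an AP-1 subunit; 0.993), and without HFD replicate 1 these were 0.995, 0.993 and 0.990. Itgam as counted ran instead with Sik2 (0.968), Trim11 (0.961) and Lats2 (0.946), so that the genes found differed between the counts as given and the sum. Itgb2 ran with Pirb (an inhibitory receptor of myeloid cells; 0.993), Herc4 (0.991) and Dstn (an actin-depolymerizing protein; 0.991).

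Itgax ran with St8sia1 (a ganglioside sialyltransferase; r = 0.998), Pdzd4 (0.982) and Ptger4 (a prostaglandin E2 receptor; 0.981), which were 0.998, 0.975 and 0.974 without HFD replicate 1. For Itgal these were Zfand3, Kdm4c and Ppp1r18 (each 0.985). Itga4 ran with Med13l (0.988), Gcn1l1 (0.976) and Pan3 (0.970), Itgb1 with Tiparp (0.970), Arsb (0.968) and M6pr (0.932), and Itgb7 with Rtn4 (0.956), Ms4a6c (0.953) and Racgap1 (0.952). Itga6 ran with Daam1 (0.976), Ctse (0.973) and Mindy2 (0.967), which were 0.890, 0.954 and 0.863 without HFD replicate 1. Itga2b ran with Wdr7 (0.976), Mindy2 (0.971) and Gsk3b (0.970). Itgb3 ran with Lmo4 (0.971), Dcaf11 (0.969) and Phf10 (0.968), which were 0.916, 0.906 and 0.904 without that library.

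Of 17 other integrin subunits, 12 were in the table and 11 were tested, and 0 were called, with 6 log2 fold changes above 0 and a median of 0.16. Itga8, an α chain that pairs with β1, was the 1 of these whose diets did not overlap. It had 1.38, 1.60, 1.60 and 0.80 CPM in HFD and 3.10, 2.55, 2.39 and 2.96 CPM in CF (log2 fold change -1.03, SE 0.26, edgeR unadjusted p = 0.0034, adjusted p = 0.15). Over all genes, 3.58% had every HFD library below every CF library. In DESeq2 its log2 fold change was -1.05 and it was called (adjusted p = 0.013), in a fit that called 3.58% of all genes and 3.18% as lower in HFD.

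Itgad, the αD chain that also pairs with β2, was low, with 2.70 to 5.57 CPM in HFD and 1.06 to 3.50 CPM in CF (log2 fold change 0.77, adjusted p = 0.65 in edgeR). Itgb2l, a β2-like chain, had 113 CPM in HFD replicate 1, 4.71 to 16.1 in the other HFD libraries and 9.15 to 30.6 in CF, an order close to that of the neutrophil genes. Itga1 was at 3.62 to 12.5 CPM, Itga5, the fibronectin receptor chain, at 10.1 to 15.4 CPM and Itgb5 at 2.25 to 4.41 CPM. Itgae (CD103), Itga9, Itga10 and Itgb4 were at most 2.23 CPM in every library. Itga2 was not tested and reached 1.57 CPM, in HFD replicate 1.

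Of 22 ligands and counter-receptors, 16 were in the table and 15 were tested, and 0 were called. Of these, 12 had a log2 fold change above 0, with a median of 0.45. Of the 16, 9 were highest in HFD replicate 1, and the share of all genes highest there was not taken. The summed CPM of the 16 was 1365 in that library, 534 to 745 in the other HFD libraries and 571 to 849 in CF. C3 held 459 and Thbs1 185 of the 1365 CPM, against at most 142 and 29.6 CPM elsewhere. Cd47, at 358 CPM, was instead lowest in HFD replicate 1. The lowest p was that of Thy1, a counter-receptor of Mac-1 and β3 integrins, with 2.57 to 4.85 CPM in HFD and 1.56 to 2.73 CPM in CF (log2 fold change 0.77, adjusted p = 0.35 in edgeR). Cdh1, the E-cadherin bound by αEβ7, differed by 1.69 on the log2 scale (adjusted p = 0.49). The laminin chain Lama5, at up to 1.09 CPM, differed by 0.87 (adjusted p = 0.80).

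A list of 28 genes covered inside-out activation and adaptors that bind integrin tails. It held the talins, kindlins and Rap1 module that switch integrins on, and also other genes, such as Sharpin, Itgb1bp1, Dok1, Flna and Sipa1. Of the 28, 24 were tested, and 0 were called, with 18 log2 fold changes above 0 and a median of 0.08. A value above 0 is thus no measure of integrin activation. Cyth1, which binds the β2 tail, had 0.19 (edgeR adjusted p = 0.71), Tln2 -0.75 (adjusted p = 0.73) and Rasgrp2, the Rap1 exchange factor, 0.17 (adjusted p = 0.80). Of 32 genes of outside-in signalling and the actin link, 30 were tested, and 0 were called, with 21 above 0 and a median of 0.07. Here Vav3 had -0.20 (adjusted p = 0.76), Lims1 -0.25 (adjusted p = 0.81) and the kinase Src 0.80 (adjusted p = 0.82). With HFD replicate 1 and CF replicate 1 both left out, the adaptor Lcp2 (log2 fold change -1.01) and the actin crosslinker Actn1 (-1.63) were called lower in HFD, both at an adjusted p of 0.049 in a fit that called 2.45% of all genes and 2.21% as lower in HFD. With all 8 libraries Lcp2 had -0.20 (adjusted p = 0.96), and Actn1 had 0.31 (adjusted p = 0.97), the opposite sign. Actn1 had 136 CPM in HFD replicate 1, where the neutrophil genes were highest, 7.33 to 20.8 CPM in the other HFD libraries and 17.6 to 43.1 CPM in CF. In the 6 libraries of that fit the neutrophil sums did not overlap either, with 976 to 3636 CPM in HFD and 6070 to 6675 CPM in CF, and their part in both calls was not tested.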

How the data were processed

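RNA of sorted CDPs was measured in 8 libraries, amplified and made with a NuGen Ovation Solo kit. The authors deposited raw counts per gene. Their processing notes and methods name FastQC, cutadapt, HISAT2, StringTie and GRCm38, with GENCODE annotation; versions are not given in the sources used here. Names, coordinates and exon lengths came from GENCODE vM21, in which 16067 of the 16119 Ensembl identifiers were found. The deposited table's columns were matched to samples by their sample number.

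Counts were fitted in R 4.3.3 with edgeR 4.0.16 (filterByExpr by diet, TMM, robust quasi-likelihood test, diet as the only term, both directions). Benjamini-Hochberg adjustment covered all 15837 genes tested, at a threshold of 0.05. CPM values are TMM-scaled. Log2 CPM used a prior count of 2. Totals of 28203651 to 48409689 counts per library gave each integrin at least 26 counts per library. Counting error was not compared with the spread between replicates.

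Alternatives were RLE or plain library size, DESeq2 1.42.0, limma 3.58.1 (voom, with and without sample weights), a linear model on log2(CPM + 1), other filters, protein-coding genes alone, a replicate block and each library left out. Summing Itgam with Gm49368, leaving out HFD replicate 1 and CF replicate 1 together, and the sum without HFD replicate 1 were added after the data were seen. Members, lists and the promoter motifs were chosen with earlier results of these data known. Named were all 10 integrins, the subunits tested, genes called or the 3 lowest p of each other list, and the 3 genes most alike. Other marker lists (monocyte, mast cell and basophil, stem cell, B cell, T and NK cell) were also summed. Figures were drawn with matplotlib 3.10.9.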

Additional observations from a re-analysis of the deposited data

Results flagged for a closer look

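In 22 groups of 4 libraries looked at (the 10 integrins and the sum of Itgam with Gm49368, in each diet), 1 held a library far from the others. Itgb1 in HFD had 72.1 CPM in replicate 3, and the gap to the next library was 0.846 of the group's range on the log2 CPM scale, past Dixon's 95% limit for 4 libraries. On the CPM scale it was 0.823, just inside that limit. Chance alone flags about 1 in 20 such groups.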

How the results depend on the processing

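Each integrin was refitted under 21 alternatives, and 30 of 210 refits turned the sign of its log2 fold change, while 2 gave a call, both for Itgax and both without HFD replicate 1. Itgax, Itga2b and Itgb3 kept their sign in all 21; the other 7 did not. Sizes moved too. With voom, weighted voom, the linear model and the replicate block, in this order, Itga2b was 0.85, 0.06, 0.88 and 0.94, Itgb3 0.76, 0.30, 0.75 and 0.79, and Itgam -0.78, -0.97, -0.75 and -0.78. Leaving out single libraries gave log2 fold changes from -1.05 to 0.052 for Itgam, 0.35 to 0.77 for Itgax, -0.11 to 0.062 for Itgal, -0.54 to 0.39 for Itgb2, -0.34 to -0.10 for Itga4, -0.029 to 0.14 for Itgb1, -0.25 to 0.03 for Itgb7, 0.02 to 0.43 for Itga6, 0.60 to 2.63 for Itga2b and 0.44 to 1.41 for Itgb3, with 0 to 1 integrins called. Signs turned for Itgal with RLE size factors (-0.0019), DESeq2 (-0.0020), weighted voom (-0.11) and protein-coding genes alone (-0.031), for Itgb2 with voom (-0.062), weighted voom (-0.50) and the linear model (-0.065), and for Itgb1 with weighted voom (-0.044). Library size alone, which moved the median of all genes from 0.05 to 0.25, turned Itga4 to 0.023 and Itgb7 to 0.13. With HFD replicate 1 and CF replicate 1 both left out, Itgal was -0.16, Itgb2 -0.73, Itgb1 -0.0010, Itgb7 0.013 and Itga6 -0.018, and 2 pathway genes were called. With Itgam and Gm49368 summed and HFD replicate 1 left out, Itgal was -0.11, Itgb2 -0.54 and Itgb7 0.034, and 1 integrin was called. DESeq2 called 1 pathway gene. The cause of these changes was not tested.

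Libraries with the same replicate number did not deviate together (correlations of -0.44, -0.08, -0.23 and -0.18), so the number was not taken as a pairing. With the replicate number as a block, Itgb2 turned to -0.13 and 0 integrins and 0 genes in all were called by edgeR (911 at an unadjusted p below 0.05). Over all genes, the 67 calls became 0 to 200 when a library was left out.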

Other observations

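Lists of other cell types were summed as well. B cell genes (9) summed to 1306 CPM in HFD replicate 1. The sum was 467 to 658 CPM in the other HFD libraries and 319 to 553 CPM in CF. Of the 1306 CPM, Ighm held 728 and Igkc 473, and 5 of the 9 genes were highest in that library. Pax5 and Ebf1 were highest in HFD replicate 3. Of the 9, 6 had an unadjusted p below 0.05 in edgeR, beside 8.56% of all genes, with 0 called. Mast cell and basophil genes (8) summed to 193 CPM in HFD replicate 1 and 16.3 to 111 CPM elsewhere. Of the 193 CPM, Hdc held 104. Cpa3, Mcpt8 and Prss34 had 9.82, 15.6 and 31.2 CPM in HFD replicate 1 and 9.75, 15.4 and 27.2 CPM in HFD replicate 2. Ms4a2 was highest in HFD replicate 2. Il1rl1 and Gata2 stood further apart, at 16.6 and 9.08 CPM in HFD replicate 1 against at most 3.08 and 3.44 CPM elsewhere. Monocyte and macrophage genes (12) ranged from 229 to 588 CPM in HFD and 448 to 667 CPM in CF, stem and multipotent progenitor genes (7) from 88.6 to 185 and 137 to 160, and T and NK cell genes (7) from 12.6 to 33.2 and 13.5 to 23.3.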
